A study of Mus musculus with 4 samples.

Results

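The 8 genes described here encode major histocompatibility complex (MHC) proteins and the factors that make them work. They are H2-Aa, H2-Ab1, H2-Eb1, Cd74 and Ciita of the class II pathway, and H2-K1, H2-D1 and B2m of class I. They were chosen by name from the 31053 genes counted and were followed across all 4 libraries by cell type, region label and virus label. Counts came from single-nucleus RNA-seq of mouse brain, with droplet-based 3′ libraries. All mice were male C57BL/6J, were injected into the cisterna magna with AAV9 at 4 weeks of age and were analysed at 8 weeks. AAV-VEGF-C carried full-length mouse VEGF-C, a lymphatic growth factor. AAV-CTRL carried a soluble part of VEGF receptor 3 that does not bind VEGF-C, joined to an immunoglobulin tail. Every group thus received a virus that drives a secreted protein, and no uninjected mice were compared. The study asked how VEGF-C given in advance acts on the brain, and these libraries are from brains without stroke.

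There were 4 groups with 1 library each, 1 for each pair of region label and virus. Values below come in the order AAV-CTRL then AAV-VEGF-C of the cortex label, followed by the same of the striatum label. Each library pooled 5 mice, and both regions of a virus group came from the same mice. With 1 library per group no test was made, so differences are given with 95% counting intervals. These hold counting error only and neither the spread between mice nor that between nuclei. They are thus too narrow where a few nuclei hold most of the UMIs of a class. The deposited libraries held 17168 to 23724 nuclei and 63165470 to 78332657 unique molecular identifiers (UMIs, counted transcripts), and 73480 nuclei were kept. Any 2 libraries shared 76 to 118 nucleus barcodes, 0.443% to 0.658% of the smaller library. The striatal neuron gene Ppp1r1b contradicted the region labels, at 63.3, 76.4, 18.8 and 18.7 CPM (UMIs scaled to a library total of 1000000). Slc17a7, a gene of cortical excitatory neurons, followed the labels, at 421, 462, 59.1 and 42.7 CPM. Region names below are therefore labels only.

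Class I molecules show peptides made inside a cell to CD8 T cells, and nearly all nucleated cells can carry them. Class II molecules show peptides taken up from outside to CD4 T cells and are held mostly by dendritic cells, B cells and macrophages, which in the brain sit chiefly at its borders. A class II molecule is a pair of an alpha and a beta chain that Cd74, the invariant chain, escorts and keeps empty on the way to the compartment where peptide is loaded. Ciita is the transcriptional co-activator that class II genes require. Class I is a heavy chain, H2-K1 or H2-D1 here, with the light chain B2m. C57BL/6 mice make the I-A pair of H2-Aa and H2-Ab1, whereas H2-Eb1, the I-E beta chain, has no functional alpha partner in this strain.

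In mm10 coordinates, 5 of the members lie in the MHC on chromosome 17. H2-K1 was at chr17:33996017-34000347 on the minus strand, H2-Ab1 at chr17:34257689-34269419 on the plus strand and H2-Aa at chr17:34282744-34287823 on the minus strand. H2-Eb1 was at chr17:34305867-34316674 and H2-D1 at chr17:35262730-35267499, both on the plus strand. The others are spread over the genome, with B2m at chr2:122147686-122153083 and Ciita at chr16:10480059-10528418, both on the plus strand, and Cd74 on a further chromosome. Ciita overlaps Dexi, H2-Eb1 overlaps Gm20513 and B2m overlaps Patl2 on the opposite strand. H2-K1 and H2-D1 are related genes, and how reads were split between them was not examined.

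The promoters are shown because class II and class I genes share short regulatory letters while their levels below part by cell type. Each line gives the 250 bases before the RefSeq start site (GRCm38.p6), read 5′ to 3′ on the gene's strand. Capitals mark the searched motifs on either strand. These were GATTGG (the CCAAT box of MHC promoters), TGACG (the core of their X2 box) and TTTCNNTTC or TTTCNNTTTC (an interferon response element). Of 7 members searched, 5 had an entry, and that of H2-D1 starts inside the mm10 gene model.
H2-Aa, chr17:34287824-34288073, minus strand: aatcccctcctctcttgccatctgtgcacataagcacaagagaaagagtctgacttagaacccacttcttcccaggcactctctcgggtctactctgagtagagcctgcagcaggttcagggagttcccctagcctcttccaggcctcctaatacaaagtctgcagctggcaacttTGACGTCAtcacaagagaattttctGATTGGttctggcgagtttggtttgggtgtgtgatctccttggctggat
H2-Eb1, chr17:34305617-34305866, plus strand: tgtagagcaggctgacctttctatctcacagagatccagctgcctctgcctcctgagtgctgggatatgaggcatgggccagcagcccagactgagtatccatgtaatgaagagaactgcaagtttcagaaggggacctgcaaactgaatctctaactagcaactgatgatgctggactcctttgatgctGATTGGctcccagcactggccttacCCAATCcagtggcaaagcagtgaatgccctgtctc
H2-K1, chr17:34000348-34000597, minus strand: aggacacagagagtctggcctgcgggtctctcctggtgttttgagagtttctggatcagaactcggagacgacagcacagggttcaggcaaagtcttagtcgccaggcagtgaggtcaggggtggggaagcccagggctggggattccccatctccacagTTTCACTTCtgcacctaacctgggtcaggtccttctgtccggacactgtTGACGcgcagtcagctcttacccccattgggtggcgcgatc
H2-D1, chr17:35262844-35263093, plus strand: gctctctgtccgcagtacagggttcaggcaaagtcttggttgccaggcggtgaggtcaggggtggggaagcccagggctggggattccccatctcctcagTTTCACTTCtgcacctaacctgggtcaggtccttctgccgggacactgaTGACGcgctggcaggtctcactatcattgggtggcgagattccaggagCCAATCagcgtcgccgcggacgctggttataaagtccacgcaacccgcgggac
B2m, chr2:122147437-122147686, plus strand: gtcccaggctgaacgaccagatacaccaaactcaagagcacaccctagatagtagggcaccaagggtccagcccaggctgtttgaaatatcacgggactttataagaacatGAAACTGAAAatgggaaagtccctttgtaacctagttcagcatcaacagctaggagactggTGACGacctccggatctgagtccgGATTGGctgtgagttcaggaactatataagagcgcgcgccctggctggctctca
All 3 class I promoters held the interferon letters once and TGACG once, and neither class II promoter held the interferon letters. H2-Aa held GATTGG once and TGACG on both strands of the palindrome TGACGTCA. H2-Eb1 held GATTGG on each strand, H2-D1 and B2m held it once, and H2-K1 had none. Over 32851 promoters of the same length, GATTGG stood in 14.6%, TGACG in 17.8% and the interferon letters in 8.82%. GATTGG and the interferon letters stood together, as in H2-D1 and B2m, in 1.11%. A match is a description of these letters and not evidence of binding.

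Class II transcripts were rare in every library. Under the striatum label their sum was 2.75-fold higher in AAV-CTRL and 1.92-fold higher in AAV-VEGF-C. H2-Aa, the I-A alpha chain, gave 1.34 CPM (1.06 to 1.67) and 1.78 CPM (1.48 to 2.12) under the cortex label and 4.58 CPM (4.08 to 5.12) and 3.71 CPM (3.24 to 4.22) under the striatum label. Its partner H2-Ab1 was at 1.43, 1.47, 3.7 and 2.87 CPM, from 83 to 245 UMIs per library. H2-Eb1 was at 1.89, 2.22, 5.44 and 4.11 CPM. These 3 chains kept the same order, with both cortex-labelled libraries below both striatum-labelled ones. Cd74 followed them at 5.4, 5.44, 14.0 and 10.3 CPM. The sum of these 4 genes, called class II below, was 10.1, 10.9, 27.7 and 21.0 CPM. Ciita did not share the order and stood at 5.79 (5.19 to 6.45), 5.11, 5.03 and 5.47 CPM, from 333 to 357 UMIs per library.

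Class I transcripts were higher in the striatum-labelled libraries by less. H2-K1 was at 20.1, 17.0, 31.1 and 25.4 CPM, and H2-D1 at 20.1, 16.9, 34.1 and 30.2 CPM. B2m was at 49.2, 41.5, 55.2 and 48.1 CPM, so its cortex AAV-CTRL and striatum AAV-VEGF-C libraries lay close together. Within each region label all 3 were lower in the AAV-VEGF-C library. Their sum, called class I below, was 89.4, 75.4, 120 and 104 CPM. These are sums over whole libraries, in which fewer cells of a type and less RNA per cell cannot be told apart.

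**Figure D1:**
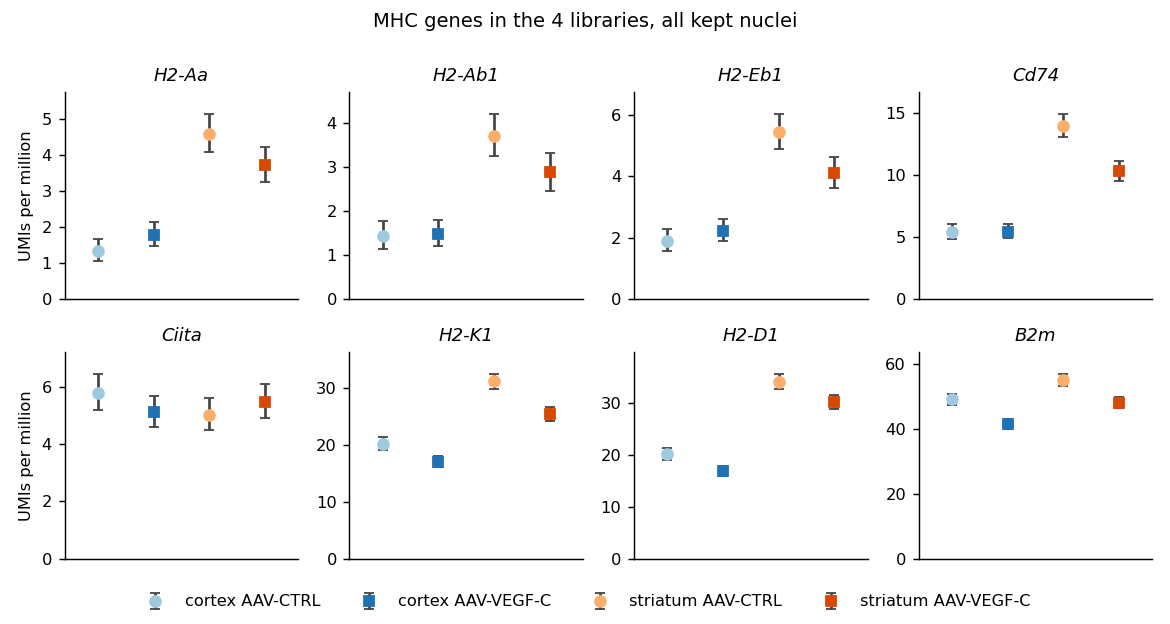
Level of each of the 8 genes in the 4 libraries, in CPM of the kept nuclei, as points with 95% exact Poisson intervals (1 library per group). The class II chains and Cd74 sit higher in both striatum-labelled libraries, whereas Ciita lies between 5.03 and 5.79 CPM throughout.

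AAV-VEGF-C was first compared with AAV-CTRL over whole libraries. A gene counted as past the threshold when it differed by at least 1.5-fold with an interval off 0, and all 8 members had the 50 UMIs needed. Under the cortex label this held for 0 of the 8 members, against 1.78% of 18633 genes. The class II ratio was 0.12 on the log2 scale (−0.04 to 0.28), where positive means higher in AAV-VEGF-C. H2-Aa had a ratio of 0.41 (−0.01 to 0.83) and Cd74 of 0.01 (−0.21 to 0.23). The class I ratio was −0.25 (−0.30 to −0.19), with H2-K1, H2-D1 and B2m each between −0.25 and −0.24. The light and heavy chains of class I were thus lower by nearly the same factor.

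Under the striatum label 0 of 8 members passed as well, against 3.73% of 19092 genes. Here class II was lower in the AAV-VEGF-C library, at −0.40 (−0.51 to −0.30). The AAV-CTRL library of this label stood apart in its nuclei, with 247 nasal sustentacular-like and 275 olfactory sensory neuron-like nuclei against 9 and 23 in AAV-VEGF-C, and 767 against 352 fibroblast-like nuclei. Without the nasal and olfactory nuclei the class II ratio was −0.40, and without fibroblast-like nuclei as well it was −0.43. Each chain lay on that side, with H2-Aa at −0.30 (−0.56 to −0.05), H2-Ab1 at −0.37 (−0.66 to −0.08), H2-Eb1 at −0.40 (−0.64 to −0.17) and Cd74 at −0.45 (−0.59 to −0.30). Class I was at −0.21 (−0.26 to −0.17), close to its value under the cortex label. Ciita had intervals that span 0 under both labels, at −0.18 (−0.40 to 0.04) and 0.12 (−0.10 to 0.35). The median of the 5 class II pathway members was 0.05 and −0.37 and that of the 3 class I members −0.25 and −0.20, beside −0.004 and 0.002 over all genes. With equal weight for each nucleus, 3 members, H2-Ab1, H2-Eb1 and Cd74, were lower by at least 1.5-fold under the striatum label. No interval was computed with that weighting.

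The libraries labelled striatum were then set against those labelled cortex. In AAV-CTRL 6 of 8 members were past the threshold as higher, where 18.9% of 18960 genes were. H2-Aa had the largest ratio of the 8, at 1.77 (1.41 to 2.15). H2-Eb1, H2-Ab1 and Cd74 followed at 1.52, 1.38 and 1.37. H2-D1 was at 0.76 (0.66 to 0.87), H2-K1 at 0.62 (0.52 to 0.73) and B2m at 0.17 (0.10 to 0.24), so the heavy chains exceeded the light chain. In AAV-VEGF-C 5 of 8 were past it, against 19.1% of 19030 genes. There H2-Aa was at 1.06, H2-Ab1 at 0.96, Cd74 at 0.92, H2-Eb1 at 0.89 and H2-D1 at 0.83. H2-K1 was just short at 0.58, the last value inside being that of H2-D1.

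The median of all genes lay at 0.19 and 0.20 in these comparisons. Scaling by the median of gene ratios took 0.18 and 0.19 off each value and left 4 and 5 members higher by at least 1.5-fold. It put B2m below 0 in AAV-CTRL and Ciita below 0 in AAV-VEGF-C. Ciita was below 0 in AAV-CTRL under either scaling. Equal weight for each nucleus left 6 and 2 members higher by at least 1.5-fold. The counts under these 2 alternatives rest on the fold alone, since no interval was computed for them. Region, dissection and library cannot be told apart here.

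**Figure D2:**
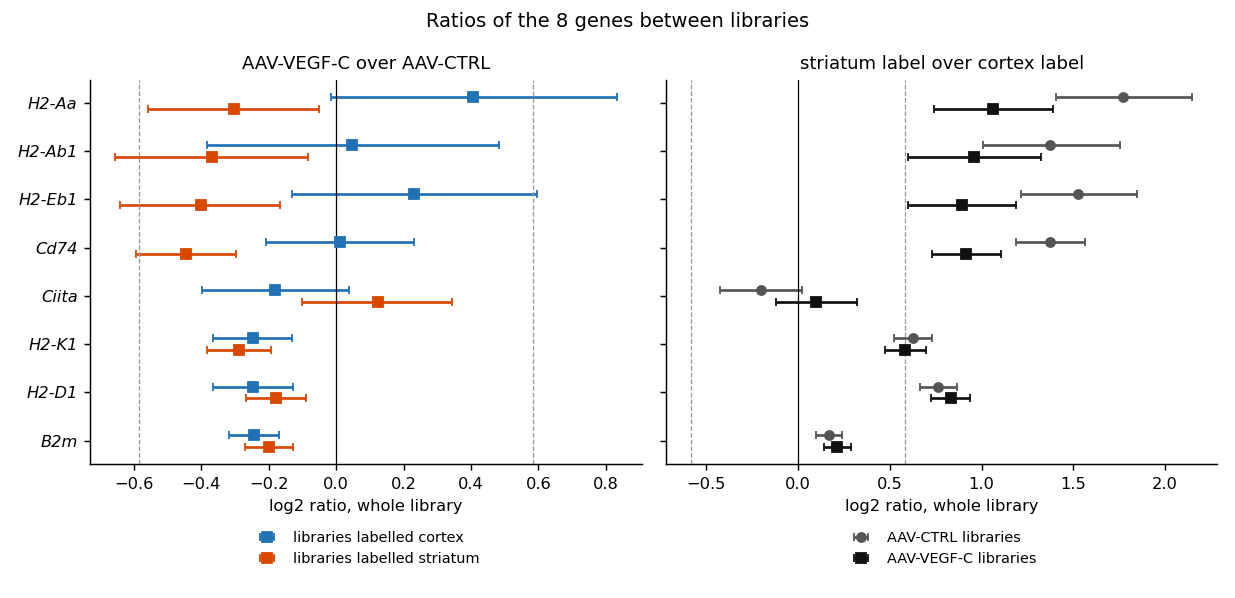
Log2 ratios of the 8 genes over whole libraries, AAV-VEGF-C over AAV-CTRL for each region label and striatum over cortex label for each virus, with 95% conditional binomial intervals. Dashed lines mark 1.5-fold, which none of the AAV ratios of the 8 genes passes, while the 4 class II genes pass it in both region comparisons.

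To see which cells held these transcripts, nuclei were clustered without the members and other antigen presentation genes, and clusters were named from marker genes. Names carry "-like" because they were rebuilt here. Class II was concentrated in a few immune clusters. Monocyte-like nuclei held 5860 CPM (5470 to 6260) over the 4 libraries, from 91 nuclei. Their name rests on 3 of 6 markers, with Ccr2 and Plac8 among their 10 leading genes, and the dendritic cell genes Cd209a and Flt3 gave 22 and 18 UMIs there. A clustering resolution of 2.0 divided them. There 42 of the 91 fell into a cluster led by Ccr2 and Lyz2 whose markers gave it the name dendritic cell-like, which held 9560 CPM (9040 to 10100) of class II over 80 nuclei. Another 31 formed a monocyte-like cluster of their own with 971 CPM (709 to 1300). Clustering with the members, which then helped to set the clusters, gave a similar division, with 39 of the 91 in an unnamed Ccr2 cluster at 10200 CPM and 33 in a monocyte-like cluster at 1270 CPM. The high class II level thus went with the Ccr2-led clusters of these divisions, and a link to Ccr2 within single nuclei was not tested. The monocyte-like values below are of the undivided cluster. B lymphocyte-like nuclei held 3430 CPM (2860 to 4080), from 28 nuclei.

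An unnamed cluster led by Ccr2, Lyz2 and Klra2 held 2720 CPM (2490 to 2960), from 163 nuclei. Its best-scoring list was that of microglia, with 9 of 11 markers met, and Ccr2 was seen in 21 of its 163 nuclei. It may thus mix cell types, which was not tested, and its values below are of the whole cluster. Border macrophage-like nuclei, marked by Mrc1, Cd163 and Lyve1, held 769 CPM (681 to 866), from 237 nuclei. Microglia-like nuclei, the brain's resident macrophages, held 18.5 CPM (14.3 to 23.5), from 2269 nuclei, close to endothelial-like nuclei at 16.7 (13.3 to 20.6). A small unnamed cluster led by Ms4a4b held 1070 CPM (786 to 1410), from 16 nuclei. No class II UMI was found in neutrophil-like nuclei, with an upper limit of 95.4 CPM, or in an unnamed cluster with Gzma, with one of 77.7 CPM. The Gzma cluster held 2510 CPM (2080 to 3000) of class I, above every other class described here.

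**Figure D3:**
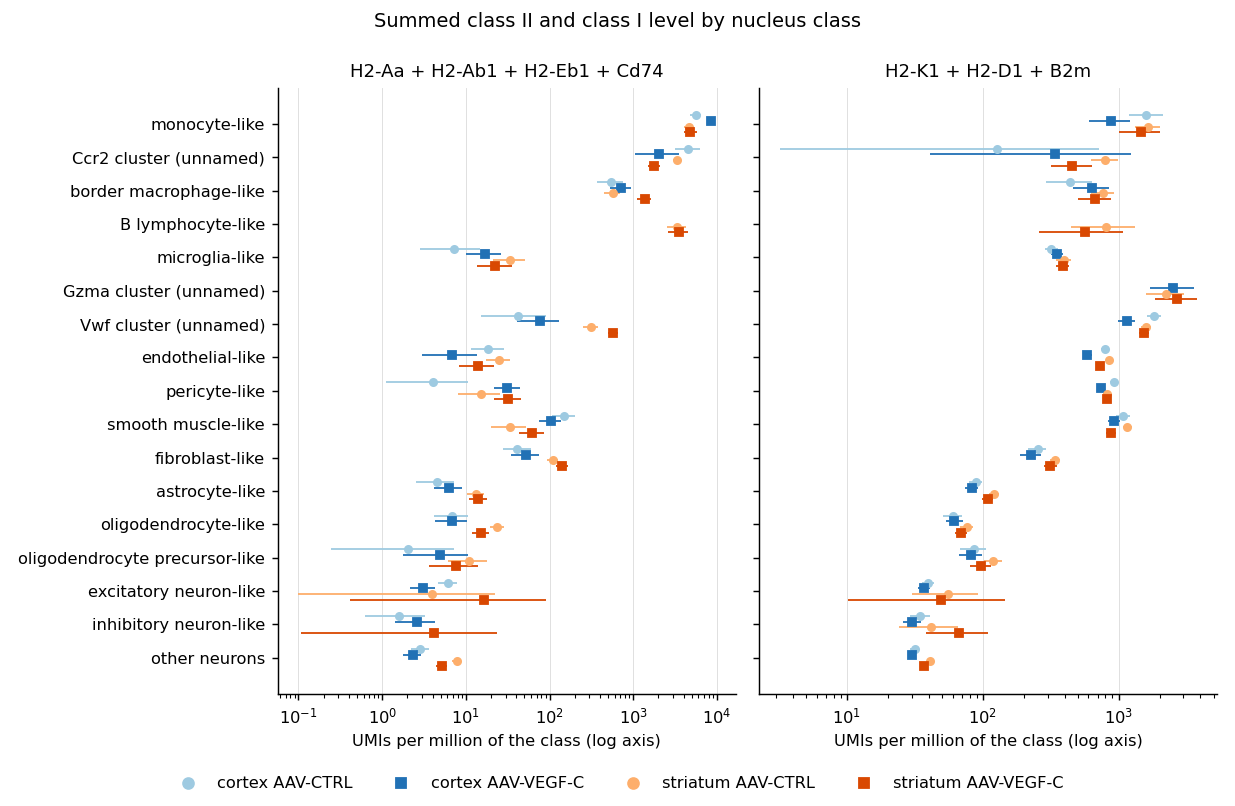
Summed class II (H2-Aa, H2-Ab1, H2-Eb1, Cd74) and class I (H2-K1, H2-D1, B2m) level of each cell class in the 4 libraries, in CPM of the class on a log axis. Class II spans from under 10 CPM in neurons to 5860 CPM in monocyte-like nuclei over the 4 libraries, and class I is highest in vascular and immune classes.

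By library, monocyte-like class II was 5560 (4770 to 6450), 8480 (7590 to 9450), 4590 (4040 to 5200) and 4840 (4000 to 5800) CPM, from 17, 24, 38 and 12 nuclei. It was thus highest in cortex AAV-VEGF-C, and the other 3 libraries overlapped in part. Cd74 there was at 2880, 4340, 2490 and 2520 CPM, and H2-Aa at 671, 1570, 682 and 704 CPM. Border macrophage-like class II was 538, 719, 569 and 1370 CPM, from 43, 48, 103 and 43 nuclei. Here striatum AAV-VEGF-C stood apart. A single nucleus held 17.7% to 29.1% of the class II UMIs of a library's monocyte-like nuclei and 18.5% to 51.5% of those of its border macrophage-like nuclei, so these levels rest on few cells.

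Class II was concentrated in few nuclei. Of 73480 nuclei, 71647 had no class II UMI. There were 102 nuclei with 10 to 73 UMIs each, which together held 48.4% of all class II UMIs. Of these 102, 74 were immune, 13 vascular, 10 of other types, 3 neuronal and 2 glial. At the other end, 1528 nuclei with a single UMI held 34.1%. UMIs of all 4 genes were found in 94 nuclei, of which 67 were immune, 12 vascular, 3 neuronal and 0 glial. In immune nuclei with H2-Aa, 85.3% also had Cd74, 74.1% H2-Eb1 and 65.5% H2-Ab1. H2-Eb1 thus appeared beside the I-A chains in the same nuclei.

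Some nuclei of the positive classes had none of it. A class II UMI was found in 71.4% of B lymphocyte-like (51.3 to 86.8), 54.9% of monocyte-like (44.2 to 65.4), 34.4% of Ccr2 cluster (27.1 to 42.2) and 19% of border macrophage-like nuclei (14.2 to 24.6). Thinned to 700 UMIs per nucleus, these shares became 64.4%, 50%, 31.4% and 14.6%. Oligodendrocyte-like and excitatory neuron-like nuclei, which should lack class II, gave 2.13% and 1.05%, or 0.972% and 0.342% when thinned, with medians of 1673 and 2828 UMIs per nucleus. Microglia-like nuclei gave 2.64% (2.02 to 3.39), or 1.22% when thinned, near the level of these background types. At least 2 class II UMIs were seen in 0.0881% of microglia-like nuclei against 0.131% of oligodendrocyte-like ones.

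Among vascular nuclei, class II was highest in an unnamed cluster led by Gm5127, Lcn2 and Vwf. It met 12 of 12 endothelial markers and had Icam1, Vcam1 and Slc38a5 among its 10 leading genes. It held 324 CPM (290 to 361) of class II over 188 nuclei and 1530 CPM (1460 to 1610) of class I. The class II level was 41.5, 76.2, 310 and 571 CPM by library, from 27, 40, 69 and 52 nuclei. Both striatum-labelled libraries lay above both cortex-labelled ones. Cd74 made up 57 and 102 of the 106 and 204 class II UMIs of the striatum-labelled libraries.

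Immune marker transcripts were present in the same cluster. Of 19 markers of border macrophages, B lymphocytes and leukocytes, 17 were detected there, and Cd79b was at 0. Their summed level was 457, 358, 678 and 481 CPM. One nucleus of striatum AAV-VEGF-C alone held 73 of the 204 class II UMIs. Without the nuclei that had a UMI of any of the 19 markers, class II in the Vwf cluster was 38.0 CPM (19 to 68.1) over 114 nuclei, and class I was 1240 CPM. That step also takes out deeper nuclei. Class II fell likewise in smooth muscle-like nuclei, from 76.5 to 14.3 CPM, whose markers summed to 367 to 716 CPM per library. In pericyte-like nuclei it went from 21.0 to 9.73 CPM. In endothelial-like nuclei the values were 16.7 and 12.7 CPM, and in fibroblast-like nuclei 97.7 (88.2 to 108) and 59.1 (51 to 68.1). Fibroblast-like nuclei kept 33 nuclei with at least 2 class II UMIs and no marker.

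**Figure D4:**
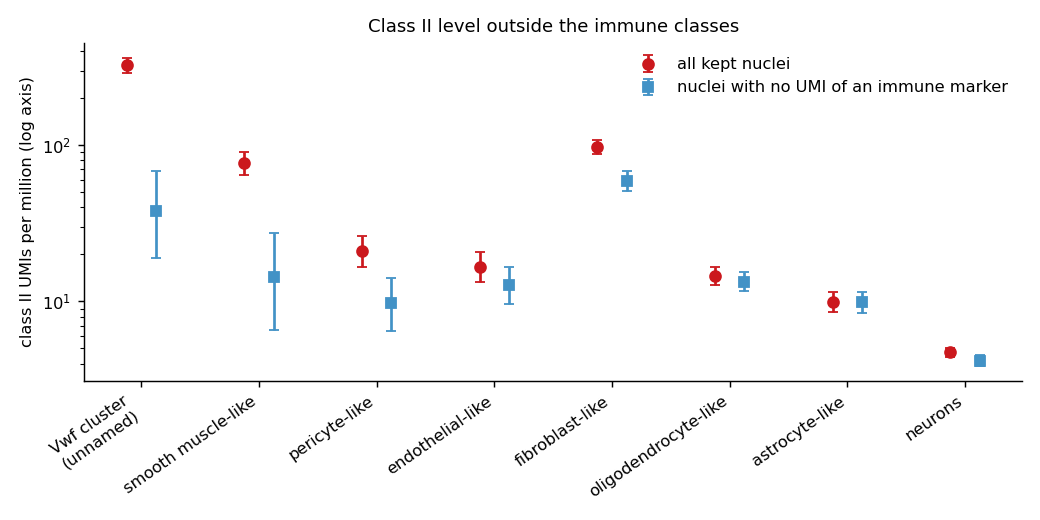
Summed class II level on a log axis in classes outside the immune ones, over all nuclei of the class and over nuclei with no UMI of 19 immune markers, all 4 libraries together, with 95% Poisson intervals. The Vwf cluster goes from 324 to 38.0 CPM and smooth muscle-like nuclei from 76.5 to 14.3 CPM, whereas astrocyte-like nuclei stay near 9.9 CPM.

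Glia and neurons held class II at a low level that was higher under the striatum label. Glial class II was 5.09, 6.15, 16.7 and 13.1 CPM, and neuronal class II 3.63, 2.79, 7.96 and 5.03 CPM. Oligodendrocyte-like nuclei went from 6.85 and 6.87 CPM in the cortex-labelled libraries to 23.6 and 15.1 CPM in the others, and astrocyte-like nuclei from 4.48 and 6.23 to 13.3 and 14.1 CPM. Only 12 of 9129 oligodendrocyte-like and 7 of 9406 astrocyte-like nuclei had 2 or more class II UMIs. Nuclei with a single UMI held 422 of the 500 glial and 722 of the 872 neuronal class II UMIs. The part of free RNA in these levels was not tested.

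Class I was ordered differently, with vascular nuclei as a group ahead of immune nuclei as a group. Vascular nuclei held 881 CPM (864 to 898), immune nuclei 463 (443 to 483), glial nuclei 83.7 (81.0 to 86.4) and neuronal nuclei 35.3 (34.4 to 36.2). Smooth muscle-like nuclei held 1000 CPM (955 to 1050), pericyte-like nuclei 828 (799 to 857) and endothelial-like nuclei 749 (725 to 773). The intervals of these 3 did not overlap. Microglia-like nuclei, 2269 of the 2871 immune nuclei, were at 359 CPM (339 to 379), below border macrophage-like nuclei at 663 (582 to 753). The order of the groups does not hold for every immune class, since the Gzma cluster lay above all vascular classes, as given above. Monocyte-like nuclei held 208 class I UMIs beside 870 of class II. Among glia, astrocyte-like nuclei held 102 CPM (97.7 to 107) and oligodendrocyte-like nuclei 68.2 (64.2 to 72.4).

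The balance of the class I heavy chains differed between cell types. Of the UMIs assigned to H2-K1 or H2-D1, H2-D1 took 73.7% (72.1 to 75.3) in neurons, 46.9% (45.5 to 48.2) in vascular nuclei, 42.3% (39.1 to 45.4) in immune nuclei and 33.4% (30.5 to 36.4) in astrocyte-like nuclei. In neurons the share was 70.1%, 74.0%, 72.6% and 77.0% by library, and in astrocyte-like nuclei 29.6%, 31.7%, 36.2% and 32.9%. The libraries of these 2 types did not overlap. Excitatory and inhibitory neuron-like nuclei were alike, at 73.7% and 73.4%. Within vascular nuclei the share was 48.9% in endothelial-like nuclei and 36.6% (33.3 to 39.9) in the Vwf cluster. Whether H2-K1 and H2-D1 share reads was not examined, which limits the absolute shares. B2m took 62.4% (59.7 to 65.1) of class I UMIs in microglia-like nuclei and 30.3% (24.1 to 37.0) in monocyte-like nuclei.

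Ciita followed class II over the immune classes listed next and departed from it elsewhere. Its level was 202 CPM (136 to 288) in monocyte-like nuclei, 101 (60.7 to 157) in the Ccr2 cluster, 16.7 (6.14 to 36.4) in border macrophage-like nuclei and 1.7 (0.626 to 3.71) in microglia-like nuclei. These classes held nearly all of the 62 immune Ciita UMIs. B lymphocyte-like nuclei, above the Ccr2 cluster in class II, thus held few Ciita UMIs if any. They numbered 28, so whether they share this order cannot be told at this depth. Of 46 immune nuclei with Ciita, 87.0% (73.7 to 95.1) had Cd74, which 6.62% of all immune nuclei had. Neurons, in contrast, held 1152 of the 1365 Ciita UMIs, 84.4% (82.4 to 86.3), at 6.23 CPM (5.87 to 6.60). That level was above the 2.10 CPM (1.70 to 2.57) of glia and the 1.51 CPM (0.897 to 2.39) of vascular nuclei. Of 1106 neurons with Ciita, 1.72% (1.04 to 2.67) had Cd74, against 0.892% of all neurons. By library the neuronal level of Ciita was 6.74, 5.86, 6.07 and 6.32 CPM, so it did not follow class II, which was higher under the striatum label. Ciita spans 48.4 kb, the longest of the 8 genes, and whether intronic reads were counted is not given in the sources used here.

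Because of these levels, cell types contributed to the library sums out of proportion to their number. Immune nuclei were 4.52%, 4.32%, 3.29% and 3.64% of nuclei and held 47.9%, 53.9%, 41.6% and 34.2% of class II UMIs. Vascular nuclei held 45.3%, 40.4%, 40.4% and 43.3% of class I UMIs and 12.1%, 13.6%, 9.6% and 22.3% of class II UMIs. Neurons held 29.5%, 32.3%, 22.1% and 23.8% of class I UMIs. The monocyte-like, Ccr2 cluster, border macrophage-like and B lymphocyte-like nuclei together numbered 68, 77, 250 and 124. They were 0.417% (0.324 to 0.529), 0.405% (0.320 to 0.506), 1.15% (1.02 to 1.31) and 0.751% (0.625 to 0.895) of nuclei and held 42.9%, 51.6%, 39.5% and 32.1% of class II UMIs. Their number was thus higher under the striatum label. Their class II level was 2440, 3400, 2270 and 2130 CPM, and that of all remaining nuclei 5.75, 5.29, 16.8 and 14.3 CPM. These classes were chosen for their class II level in these data, so that contrast follows from the choice. The Ms4a4b cluster of 16 nuclei was not among them, although its level exceeded that of border macrophage-like nuclei.

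**Figure D5:**
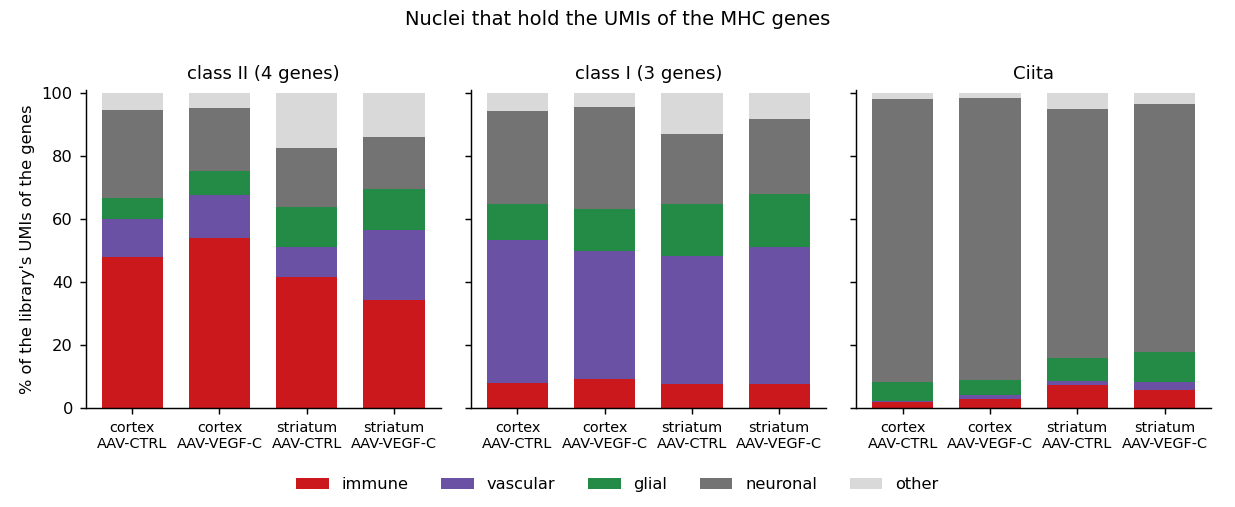
Share of each library's UMIs of class II, class I and Ciita held by immune, vascular, glial, neuronal and other nuclei, in percent. Here other joins fibroblast-like, ependymal-like, choroid plexus-like, erythroid-like, nasal and unnamed nuclei. Immune nuclei hold 34.2% to 53.9% of class II UMIs and neurons 78.7% to 89.9% of Ciita UMIs.

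Within immune nuclei, the AAV comparison of class II went opposite ways under the region labels. The ratio of AAV-VEGF-C over AAV-CTRL was 0.42 (0.20 to 0.64) under the cortex label and −0.87 (−1.04 to −0.70) under the striatum label. The make-up of the immune nuclei differed under the striatum label. In striatum AAV-CTRL the 4 high classes were 35.1% (31.6 to 38.7) of immune nuclei, and in striatum AAV-VEGF-C they were 20.6% (17.5 to 24.1). Under the cortex label these shares were nearly equal, at 9.23% (7.24 to 11.6) and 9.38% (7.47 to 11.6). Leaving out microglia-like nuclei gave 0.37 (0.14 to 0.59) and −0.01 (−0.18 to 0.17). Cd74 over all immune nuclei was at 0.41 (0.10 to 0.73) and −0.94 (−1.18 to −0.70).

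By class, monocyte-like nuclei had class II ratios of 0.61 (0.34 to 0.88) under the cortex label and 0.08 (−0.25 to 0.40) under the striatum label. Their H2-Aa was at 1.22 (0.49 to 2.01) under the cortex label and H2-Ab1 at −0.02 (−0.74 to 0.71), and the intervals of this I-A pair overlapped. Border macrophage-like nuclei had 0.42 (−0.24 to 1.10) and 1.26 (0.84 to 1.69). Under the striatum label 2 of the 3 members with enough UMIs were past 1.5-fold in this class, where 8.53% of 821 genes were, with Cd74 at 1.33 (0.74 to 1.94) and B2m at −0.86 (−1.80 to −0.01). The median depth of these nuclei was 1366 UMIs in AAV-CTRL and 1733 in AAV-VEGF-C. Clustered with the members included, the class held 450 CPM of class II over the 4 libraries in place of 769.

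The Ccr2 cluster had a class II ratio of −0.92 (−1.22 to −0.63) under the striatum label, from 92 and 60 nuclei. Here Cd74, at −1.16 (−1.61 to −0.74), and H2-Eb1, at −0.99 (−1.74 to −0.29), were past the threshold, 2 of 4 members with enough UMIs, where 9.37% of 555 genes were. Its median depth was 963 and 1156.5 UMIs. Microglia-like nuclei gave 1.23 (−0.10 to 2.73) and −0.58 (−1.56 to 0.38), from 7, 18, 21 and 19 UMIs, so no difference was detectable at this depth. Among immune nuclei under the striatum label, the ratio of class II was thus higher in border macrophage-like nuclei, lower in the Ccr2 cluster and near 0 in monocyte-like nuclei. The differences between these classes were not tested.

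In vascular nuclei class II was higher in AAV-VEGF-C under the striatum label, at 0.78 (0.51 to 1.06), and was 0.35 (−0.10 to 0.81) under the cortex label. With equal weight for each nucleus the striatum-label ratio turned to −0.35, so its direction rests on the weighting. The Vwf cluster held 106 of 176 and 204 of 288 of the vascular class II UMIs of the striatum-labelled libraries, and its class II ratio under the striatum label was 0.88 (0.54 to 1.23), or −0.23 with equal weight. Cd74, at 0.78 (0.29 to 1.27), and H2-Eb1, at 1.01 (0.19 to 1.88), were past the threshold there, 2 of 5 members with enough UMIs, where 8.81% of 3449 genes were. The immune marker sum of that cluster was lower in the AAV-VEGF-C library, at 481 CPM against 678. Among nuclei without these markers the class II ratio was 0.37 (−1.60 to 2.42), from 5 and 6 UMIs. In pericyte-like nuclei, a single nucleus held 22 of 34 class II UMIs in cortex AAV-VEGF-C and 23 of 30 in striatum AAV-VEGF-C. Fibroblast-like nuclei, outside the vascular group, had ratios of 0.32 (−0.47 to 1.13) and 0.38 (0.06 to 0.70), and 0.58 (0.09 to 1.08) under the striatum label without marker-bearing nuclei.

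Class I in vascular nuclei was lower in AAV-VEGF-C under both region labels. Its level was 937, 736, 968 and 875 CPM. The ratios were −0.35 (−0.43 to −0.26) and −0.15 (−0.22 to −0.07). Endothelial-like nuclei gave 795, 588, 846 and 732 CPM. Their ratios were −0.43 (−0.58 to −0.29) and −0.21 (−0.33 to −0.09). B2m was at −0.52 (−0.74 to −0.31) and −0.22 (−0.40 to −0.05) there and H2-K1 at −0.41 and −0.30, while both intervals of H2-D1 reached 0. Pericyte-like nuclei gave 930, 746, 824 and 818 CPM, which made −0.32 (−0.46 to −0.18) and −0.01 (−0.16 to 0.14). Smooth muscle-like nuclei gave 1080, 926, 1160 and 880 CPM, which made −0.22 (−0.44 to 0.00) and −0.39 (−0.56 to −0.22). Microglia-like nuclei had intervals spanning 0, at 0.13 (−0.09 to 0.35) and −0.02 (−0.27 to 0.22). None of the class I ratios listed above reached 1.5-fold. The Vwf cluster, also vascular, was not among them. Its class I level was 1820, 1150, 1600 and 1530 CPM, from 27, 40, 69 and 52 nuclei. Under the cortex label it was thus lower in AAV-VEGF-C by more than 1.5-fold, and an interval of this ratio is not given here.

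Within groups of cells, class II was higher under the striatum label in glia, neurons, vascular nuclei and immune nuclei as a whole, while immune nuclei other than microglia gave ratios below 0. In AAV-CTRL and AAV-VEGF-C the striatum over cortex ratio was 1.71 and 1.09 in glia, 1.13 and 0.85 in neurons and 0.91 and 1.33 in vascular nuclei. The vascular ratio of AAV-VEGF-C became 0.42 with equal weight for each nucleus. Over all immune nuclei it was 1.58 (1.39 to 1.79) and 0.30 (0.10 to 0.50), where the share of high class II classes differed between the labels as given above. Microglia-like nuclei gave 2.24 (0.95 to 3.72) and 0.43 (−0.58 to 1.44), from 7 and 21 UMIs in AAV-CTRL and 18 and 19 in AAV-VEGF-C. In immune nuclei other than microglia it was −0.17 and −0.54, and in monocyte-like nuclei −0.28 (−0.56 to 0.01) and −0.81 (−1.13 to −0.50). Border macrophage-like nuclei differed, at 0.08 (−0.52 to 0.71) and 0.93 (0.43 to 1.44). Smooth muscle-like nuclei gave −2.16 and −0.74, where a single nucleus held 39 of 40 and 45 of 49 UMIs of the cortex-labelled libraries. Fibroblast-like nuclei gave 1.39 (0.81 to 2.02) and 1.44 (0.86 to 2.07), and 0.28 (−0.37 to 0.97) and 0.89 (0.17 to 1.66) without marker-bearing nuclei.

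Genes with patterns most like the members were sought over 71 points, each a class in a library with at least 50 nuclei, from 22 classes. Monocyte-like and B lymphocyte-like nuclei never reached 50 in a library and were left out. Border macrophage-like nuclei entered only from striatum AAV-CTRL, and the Ccr2 cluster only from the striatum-labelled libraries. The measure was Pearson's r of log2 levels, given as a description since points share libraries and depth. For class II the leading genes outside the members were Lyz2 (0.858), Mrc1 (0.835), Cybb (0.809), Ms4a6c (0.791) and Gm4951 (0.784). For class I they were Rps9 (0.938), Clec2d (0.938), Rpl18 (0.932), Irgm2 (0.931) and Rps4x (0.930). Over these points Ciita had an r of 0.199 with class II and of −0.187 with class I, whereas Cd74 had 0.970 with class II and B2m 0.975 with class I.

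Other genes of antigen presentation were read from lists. Between virus labels few were past the threshold. Under the cortex label these were H2-M3, a non-classical class I gene, at −0.83 (−1.31 to −0.35) and the interferon-induced Ifit1 at −0.62 (−0.89 to −0.34), 1 of 9 tested other class I genes and 1 of 19 interferon-induced genes, beside 1.78% of all genes. The lists of class I peptide loading (13 tested), class II processing and co-stimulation (8), MHC transcription and interferon receptors (17) and other class II genes (2) had 0. Under the striatum label, H2-Q1 was higher at 1.02, and H2-Q6 and H2-Q7 lower at −0.87 and −0.71, which made 3 of 12 other class I genes, beside 3.73% of all genes. The H2-Q genes are close copies, so their split of reads is uncertain. Cd40, a co-stimulatory receptor, was at −0.65 (−1.05 to −0.25) and the chemokine Cxcl10 at −1.07. Peptide loading again had 0 of 13. The most abundant genes of the lists stayed near 0 under both labels, with H2-DMa, which helps load class II, at 0.15 and −0.06, and H2-T22 at −0.11 and −0.08.

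Between region labels the other class I genes were higher as a group, with 8 of 12 past the threshold as higher and 0 as lower in both viruses, where 18.9% and 19.1% of all genes were higher. Their median was 0.82 in AAV-CTRL and 0.77 in AAV-VEGF-C, beside 0.19 and 0.20 for all genes. In AAV-CTRL they were H2-Q2 at 3.10, Cd1d1 at 2.18, H2-Q6 at 1.40, H2-Q1 at 1.02, H2-Q7 at 0.97, Mr1 at 0.90, H2-T22 at 0.73 and H2-M3 at 0.69. Nlrc5, the class I counterpart of Ciita, was at 0.84 and 0.70, and the peptide transporter Tap2 at 1.02 and 1.31. Peptide loading had 3 and 4 of 13 past it as higher, class II processing and co-stimulation 1 and 2 of 8, MHC transcription and interferon receptors 4 and 3 of 17, and interferon-induced genes 6 of 20 and 5 of 19. Beside the 18.9% and 19.1% of all genes, these counts are not taken as results about the lists. Of the other class II genes tested, H2-DMa was at −0.61 and H2-DMb1 at 0.61 in AAV-VEGF-C, and neither passed in AAV-CTRL.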

How the data were processed

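The authors isolated nuclei from pooled brain tissue, prepared droplet 3′ libraries and deposited raw UMI counts per gene and nucleus, not normalized. The file headers name Cell Ranger 5.0.1, while the submitters' processing notes name 5.1.1 and mm10, and intron counting is not given in the sources used here. The lowest deposited nucleus held 719 UMIs. The 4 matrices were read with Python 3.11.15, scipy 1.17.1 and pandas 2.3.3. Doublets, droplets with 2 nuclei, were called in each library by comparison with simulated ones, and called nuclei and clusters with at least 40% of them were left out (875 to 2059 nuclei per library). Counts were normalized to 10000 per nucleus and log-transformed, and 5000 variable genes without 51 antigen presentation genes, 50 components, 15 neighbours and leidenalg 0.10.2 at a resolution of 1.2 gave the clusters. Immune, vascular and fibroblast clusters were divided again at 0.8, which gave 88 clusters, 16 of them left out as doublets. Names follow marker lists, and a class here need not match the study's class of the same name.

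UMIs were summed per library or class and scaled to a total of 1000000 (CPM). Levels have exact Poisson, shares Clopper-Pearson and ratios conditional binomial intervals at 95%, for counting error only. Genes needed 50 UMIs in the 2 libraries of a whole-library or within-class comparison. Nuclei did not serve as replicates, and no test was made. The ratio method was tested on simulated Poisson counts, which hold no spread between nuclei. Alternatives were other scalings, filters, clusterings, doublets kept and thinning to 700 UMIs. Nuclei without immune markers, the region alternatives, equal weight in groups of classes and leaving out nasal nuclei were added after the data were seen. The members and gene lists were chosen with earlier results of these data known. Named genes of the lists were those past 1.5-fold, up to the 10 with most UMIs, and the most abundant gene of a list, and for patterns the 5 highest r. The authors' clusters and tests were not used here.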

Additional observations from a re-analysis of the deposited data

Results flagged for a closer look

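Several ratios of AAV-VEGF-C over AAV-CTRL had opposite signs under the region labels. They are set out here because the single pair of libraries of each label gave a difference of the opposite direction. None of these differences between labels was tested, since there was 1 library per group.

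Over whole libraries, the log2 ratio under the cortex and striatum labels was 0.41 and −0.30 for H2-Aa, 0.048 and −0.37 for H2-Ab1, 0.23 and −0.40 for H2-Eb1 and 0.012 and −0.45 for Cd74. For Ciita it was −0.18 and 0.12. The class II sum was at 0.12 and −0.40. Within immune nuclei class II was at 0.42 and −0.87 and class I at 0.10 and −0.39, and within glial nuclei class II was at 0.27 and −0.34. The intervals under the cortex label span 0 for all of these except class II in immune nuclei, and the share of high class II nuclei among immune nuclei differed between the libraries as given above.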

How the results depend on the processing

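No paired analysis was made. Both regions of a virus group came from the same mice, but an additive fit over the 4 libraries would leave 1 residual degree of freedom and was not run, and no group held a second library to leave out. Keeping all barcodes left the 40 whole-library ratios within their intervals. With equal weight per nucleus 17 of 40 moved and with median-of-ratios scaling 11 of 40, none with a change of sign in a called value. The striatum-label class II ratio of the viruses became −0.64 with equal weight. Leaving out nasal nuclei, with or without fibroblast-like ones, kept the 8 whole-library sums within their intervals. The region ratios of class II became 1.28 (AAV-CTRL) and 0.76 (AAV-VEGF-C) and those of class I 0.25 and 0.27 under median-of-ratios scaling. With equal weight, class II in AAV-VEGF-C became 0.49 and class I 0.35 and 0.32. Genes past 1.5-fold between viruses went from 331 to 538 with no filter and 83 with at least 200 UMIs under the cortex label, and from 712 to 1134 and 280 under the striatum label. The filter also changes the number of genes tested, and the shares past 1.5-fold under the other filters are not given here.

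Within classes, a resolution of 2.0 left 44 of 46 ratios in place, clustering with the members 44 of 47, keeping doublets 48 of 51 and equal weight 48 of 51. Class II in smooth muscle-like nuclei under the striatum label reversed from 0.87 to −0.15 with equal weight and −0.19 without marker-bearing nuclei. Over all vascular nuclei that ratio reversed from 0.78 to −0.35 and in the Vwf cluster from 0.88 to −0.23 with equal weight, while 45 of 50 ratios of cell groups stayed in place. In excitatory neuron-like nuclei under the cortex label it reversed from −0.98 to 0.073 at a resolution of 2.0, 0.095 with the members and 0.40 without marker-bearing nuclei. The cause was not tested. Border macrophage-like class II became 450 CPM with the members, and the 91 monocyte-like nuclei were divided at 2.0 and with the members, as given above. Depth limits the rarest signals: microglia-like class II rested on 7 to 21 UMIs per library.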
